A study of Mus musculus with 2 samples.

Results

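Transcripts of glycolysis enzymes were followed in mammary glands of mice labelled as knockout or wild type for Ehf, which encodes an epithelial transcription factor of the ETS family. The 10 genes examined, found by symbol among 27179 listed features, were Gpi1, Pfkl, Pfkp, Aldoa, Tpi1, Pgk1, Pgam1, Eno1, Pkm and Ldha, and all 10 were found. They were taken by name as enzymes of the cytosolic pathway. The rule itself uses no measured value, but the members were chosen with earlier results of these data known. The groups were 1 library of Ehf knockout cells (strain EhfKO) and 1 library of wild type cells (strain WT). Both came from adult females at 18.5 days of pregnancy, with the glands of 2 females pooled per genotype, and both held cells sorted by flow cytometry for the absence of Ter119, CD31 and CD45, markers of red cells, endothelium and leukocytes. Some non-epithelial cells remained, 61 in the knockout library against 178 in the wild type library, and a cluster of 130 such cells had genes of myeloid and endothelial cells on top (H2-Aa, Ctss, C1qa, Cdh5). The labels give no further allele and do not say which part of Ehf was deleted. Since each genotype was 1 library, no test could be run and no p-value is given. Intervals are 95% counting intervals that say nothing of the spread between animals.

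Glycolysis splits glucose into pyruvate in the cytosol. Gpi1 turns glucose 6-phosphate into fructose 6-phosphate. Pfkl and Pfkp are the liver-type and platelet-type phosphofructokinases, which catalyse the committed step. Aldoa and Tpi1 cut the 6-carbon sugar and interconvert the resulting triose phosphates. Pgk1, Pgam1, Eno1 and Pkm carry the triose to pyruvate with a yield of ATP, and Ldha reduces pyruvate to lactate. In the secretory mammary gland glucose is also the raw material of lactose, through UDP-galactose, and of fatty acids and glycerol for milk fat.

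The knockout library held 7275 barcodes with a median of 3707 UMIs (unique molecular identifiers, which count captured transcript ends), and the wild type library 11258 barcodes with a median of 2163.5. After filtering, 6561 knockout and 9086 wild type cells were grouped into classes by marker genes. Luminal secretory cells, which join alveolar-like and luminal progenitor-like clusters, numbered 824 of the knockout against 2559 of the wild type library. Basal cells numbered 5524 of the knockout against 6224 of the wild type, and hormone-sensing cells 152 against 125. The luminal class was held by different clusters in each library. Clusters 5 and 7 held 62.5% and 31.1% of knockout luminal cells, while the alveolar-like cluster 4 held 50.3% of wild type luminal cells. Clusters 5 and 7 were named luminal progenitor-like only because that marker list had the highest median. Their 10 top genes against other classes held none of that list, and included Csn1s1, Csn1s2a, Csn2, Csn3 and Btn1a1, so their cells also had milk transcripts. Ehf itself had a level of 89.9 in knockout and 187 in wild type luminal cells, so its transcript was lower but not absent under the knockout label. Tags at the transcript end need not lie in the deleted part. A total of 25 barcodes occurred in both libraries. None of the 10 glycolysis genes entered the clustering.

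Milk protein transcripts took 10.3% of the UMIs of knockout luminal cells, against 38.9% of those of wild type luminal cells. Levels are therefore given as outside-milk CPM, the UMIs of a gene per 1000000 UMIs outside 12 milk protein genes. Log2 ratios are further centred so that the median of all genes with at least 50 UMIs over both sides is 0. For luminal cells this centring removed a shift of all genes by 0.31 on the outside-milk scale and by 0.86 on plain CPM (per 1000000 of all UMIs). A gene was counted as higher or lower at a difference of at least 1.5-fold, which is a rule of size.

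Promoter windows with the motif ACGTG that hold no annotated exon are shown first. They belong to Ldha, Aldoa and Pgam1, which were lower in knockout luminal cells, and to Pgk1, which stayed within 1.5-fold. ACGTG is the core of the sequence bound by hypoxia-inducible factors, and CACGTG, which contains it, is the E-box bound by Myc and related factors. Sequences are RefSeq windows of 250 bases directly upstream of an annotated start on GRCm38.p6, read 5′ to 3′ on the strand of the gene, with each match of ACGTG on either strand in capitals.
Ldha, chr7:46845554-46845803, plus strand: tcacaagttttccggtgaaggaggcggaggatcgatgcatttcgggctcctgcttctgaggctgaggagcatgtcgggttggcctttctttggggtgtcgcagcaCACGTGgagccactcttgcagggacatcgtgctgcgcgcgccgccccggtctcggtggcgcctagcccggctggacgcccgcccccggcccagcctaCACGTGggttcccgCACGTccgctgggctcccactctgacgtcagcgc
Pgam1, chr19:41911621-41911870, plus strand: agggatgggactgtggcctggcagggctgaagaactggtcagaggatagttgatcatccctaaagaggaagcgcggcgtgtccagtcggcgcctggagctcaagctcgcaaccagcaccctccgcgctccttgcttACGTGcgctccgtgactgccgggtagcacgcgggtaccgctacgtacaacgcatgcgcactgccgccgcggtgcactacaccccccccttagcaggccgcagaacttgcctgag
Aldoa, chr7:126799255-126799504, minus strand: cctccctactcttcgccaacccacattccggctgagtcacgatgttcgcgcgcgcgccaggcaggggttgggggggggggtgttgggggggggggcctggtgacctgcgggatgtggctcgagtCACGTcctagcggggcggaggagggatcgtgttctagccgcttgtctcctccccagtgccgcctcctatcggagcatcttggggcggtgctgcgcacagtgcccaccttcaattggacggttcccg
Pgk1, chrX:106186850-106187099, plus strand: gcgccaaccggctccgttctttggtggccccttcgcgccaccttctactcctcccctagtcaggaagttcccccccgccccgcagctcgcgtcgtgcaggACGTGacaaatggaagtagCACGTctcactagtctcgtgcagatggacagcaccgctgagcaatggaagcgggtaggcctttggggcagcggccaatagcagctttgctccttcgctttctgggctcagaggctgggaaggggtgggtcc
The Ldha window held 5 matches, of which 4 came from 2 copies of the palindrome CACGTG read on both strands. Windows with at least 4 matches made up 0.502% of the 32851 promoter windows of the same length. Pgk1 held 2 matches, 150 and 131 bases before its start, Pgam1 held 1 at 114 bases, and Aldoa held 1 at 126 bases in this window. Pkm, also lower in knockout luminal cells, had 1 match at 75 bases in the window of one start (chr9:59656977-59657226, plus strand), which overlaps annotated exon by 140 bases and is not printed, and none in the window of another start. A second Ldha window and a further Aldoa window held none, and another overlapping Aldoa window holds the printed match again. In all, 5 of 10 members had at least 1 match in a window, against 18.5% of 27025 genes. A gene counts here if any of its windows matches. The 10 members had 16 windows and the 27025 genes 32851, so the members had more windows per gene. Of all windows 16.6% held a match. Matches were also absent from the windows of Pfkl and Eno1, which were lower in knockout luminal cells as well. A match is a description of these letters and says nothing of binding.

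In luminal secretory cells 6 of the 10 glycolysis genes were at least 1.5-fold lower in the knockout than in the wild type library and none was higher, relative to the median gene. The 6 were Pfkl, Pkm, Ldha, Pgam1, Eno1 and Aldoa, so they covered the committed step, the aldolase split, the last steps to pyruvate and the step to lactate. Among all 11154 genes measured in this comparison 18.1% were lower and 15.3% higher by the same rule. All 10 ratios were below 0 and their median was -0.70, where the median of all genes is 0. On plain CPM, where the smaller milk share of the knockout library raises every other gene, none was lower, 1 was higher (Gpi1) and the median was 0.16. There the median gene itself lay at 0.86, beyond 1.5-fold. The share of all genes called on plain CPM was not computed. On that scale Aldoa, Pgam1 and Eno1 turned to 0.18, 0.08 and 0.14, while Pfkl, Pkm and Ldha stayed below 0 on every scale. Without the centring, on the outside-milk scale, 3 were lower and none higher.

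Pfkl, the liver-type phosphofructokinase on chromosome 10, had the lowest ratio. It stood at 40.2 outside-milk CPM in knockout and 77.9 in wild type luminal cells (482 and 1389 UMIs), a log2 ratio of -1.26 with an interval of -1.41 to -1.11. Pfkp, the platelet-type enzyme on chromosome 13, was at 14.6 in knockout and 14.9 in wild type luminal cells, a log2 ratio of -0.34 that stayed within 1.5-fold. The pair thus differed in how far each lay from the median gene.

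Pkm, the muscle-type pyruvate kinase on chromosome 9, catalyses the last step to pyruvate. It had a level of 116 in knockout and 220 in wild type luminal cells, a log2 ratio of -1.23 (-1.32 to -1.14). Its splice forms cannot be told apart from counts per gene.

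Ldha, on chromosome 7, was at 283 in knockout and 481 in wild type luminal cells, a log2 ratio of -1.07 (-1.13 to -1.02). Pgam1, the phosphoglycerate mutase on chromosome 19, was at 124 in knockout and 172 in wild type cells, with a log2 ratio of -0.78 that becomes 0.08 on plain CPM. Eno1, the ubiquitous enolase on chromosome 4, was at 380 in knockout and 504 in wild type cells, with a log2 ratio of -0.72 that becomes 0.14 on plain CPM. These 3 enzymes act in the last part of the pathway.

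Aldoa, the muscle-type aldolase on chromosome 7, was at 180 in knockout and 233 in wild type luminal cells, with a log2 ratio of -0.68 that becomes 0.18 on plain CPM. Of the genes that stayed within 1.5-fold, Pgk1 had a log2 ratio of -0.42, Tpi1 -0.36 and Gpi1 -0.05. Gpi1 was the member nearest to the median gene, at 112 in knockout and 93.8 in wild type luminal cells. Eno1 and Aldoa have near-identical copies whose reads can be split from theirs. Eno1b had 844 UMIs in knockout and 1109 in wild type cells, against 13131 and 14210 for Eno1.

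**Figure D1:**
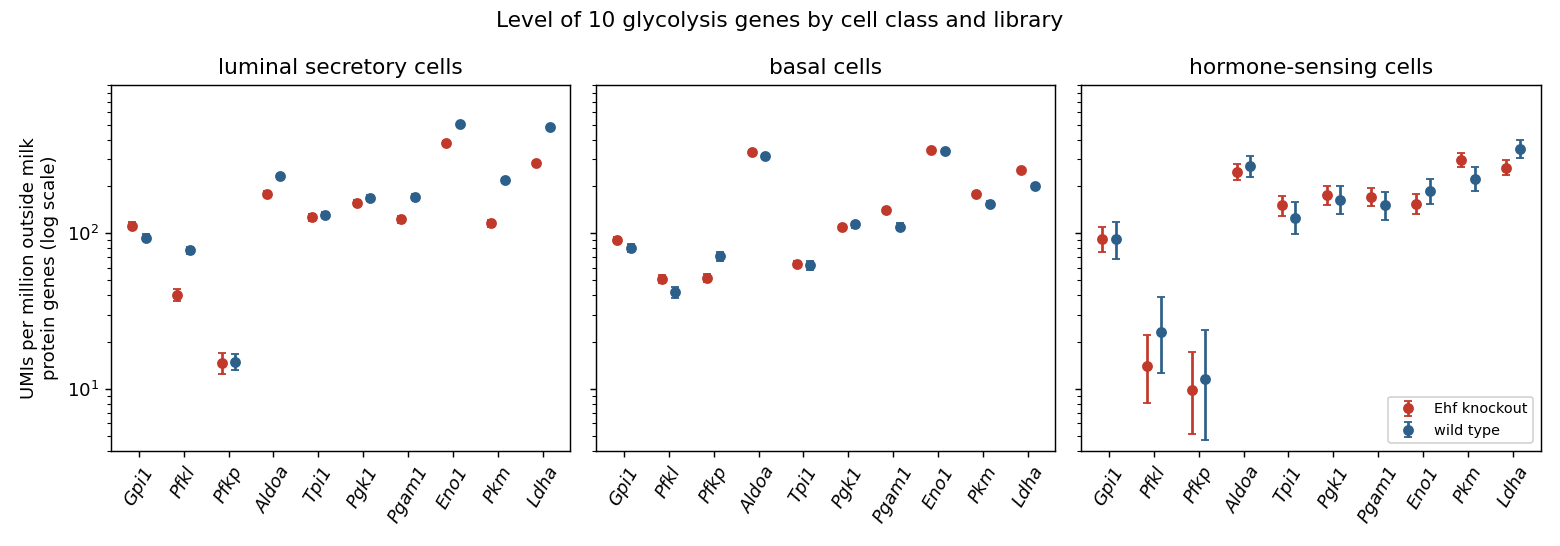
Level of each glycolysis gene (outside-milk CPM, log axis) in luminal secretory, basal and hormone-sensing cells, with the Ehf knockout library in red left of the wild type library in blue and bars for 95% counting intervals. In luminal cells Ldha is at 283 for the knockout against 481 for the wild type library, while in basal cells it is at 257 and 201.

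Relative to the median gene, the luminal difference was also seen inside clusters that both libraries filled. In cluster 5, with 515 knockout and 656 wild type cells, 5 of 10 members were at least 1.5-fold lower and none higher, with a median log2 ratio of -0.58. In this cluster 11.6% of 9253 genes were lower. In cluster 7, with 256 knockout and 373 wild type cells, 5 were lower and none higher, with a median of -0.55 against 15.8% of 9333 genes. Pkm was at -0.92 in cluster 5 and -1.10 in cluster 7, and Ldha at -0.86 and -0.89. In the alveolar-like cluster 4, with only 51 knockout cells, 2 were lower (Pkm and Pgk1), Ldha was at -0.21 and the median was -0.25, where 20.4% of genes were lower. Clusters were made from the same cells, and their ratios describe these libraries. The cluster ratios were not computed on plain CPM or on the outside-milk scale without centring. Milk genes were left out of the clustering, so cells of a cluster were not matched for milk or casein share.

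In basal cells none of the 10 genes reached 1.5-fold in either direction between the knockout and the wild type library. Their median log2 ratio was 0.16, with 8 above 0 and 2 below. Of 12215 genes measured there, 6.03% were higher and 6.51% lower. Ldha was at 257 in knockout and 201 in wild type basal cells (log2 ratio 0.38), and Pgam1 was at 141 and 110 (0.38). Pfkp lay at the other end, at 51.6 in knockout and 70.9 in wild type basal cells (-0.43). Plain CPM moved the basal median only to 0.15. The class is split over different clusters in each library, with cluster 0 holding 51.1% of the knockout cells against 3.08% of the wild type cells.

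Hormone-sensing cells were few, and Pfkl and Pfkp were under the minimum of 50 UMIs over both libraries, with 17 knockout and 14 wild type UMIs for Pfkl and 12 and 7 for Pfkp. None of the other 8 genes reached 1.5-fold between the knockout and the wild type library, with a median of 0.07. The background there was 9.1% higher and 8.76% lower of 4420 genes. Pkm was at 296 in knockout and 224 in wild type cells (0.42, interval 0.14 to 0.72), and Ldha was at 264 and 350 (-0.38, interval -0.64 to -0.12). These intervals are wide, and a difference within 1.5-fold is not shown to be absent.

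**Figure D2:**
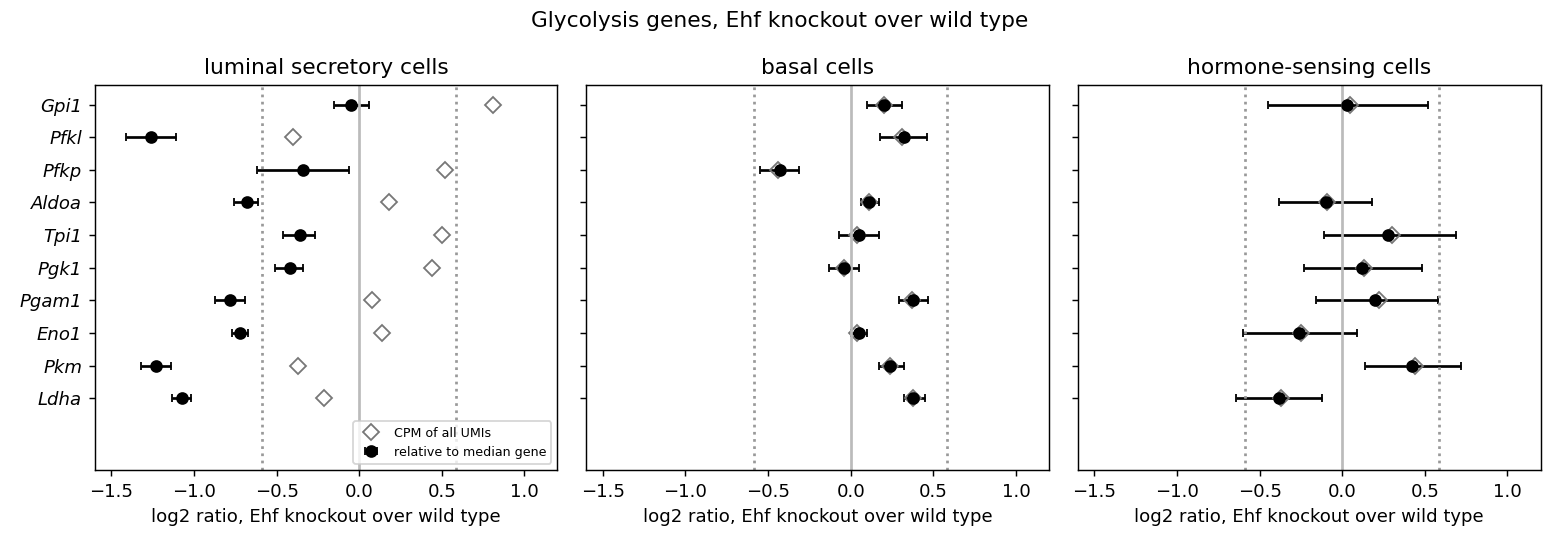
Log2 ratio of each glycolysis gene, Ehf knockout over wild type, in 3 cell classes. Filled points with 95% counting intervals are relative to the median gene, open diamonds are plain CPM, and dotted lines mark 1.5-fold. In luminal cells 6 filled points lie beyond the lower line and the diamonds lie to their right by 0.86, while in basal and hormone-sensing cells both kinds of point lie within the lines. Pfkl and Pfkp are not drawn in hormone-sensing cells.

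Luminal and basal levels were also compared within each library, and the scale decided how the wild type came out. In the wild type library 7 of 10 genes were at least 1.5-fold higher in luminal than in basal cells and Pfkp was lower, with a median of 0.78. Of 11976 genes 30.5% were higher and 31.9% lower. On plain CPM, where the median gene lay at -0.89, none was higher, 2 were lower and the median of the 10 was -0.11. Pgk1, Pgam1, Eno1 and Pkm turned below 0 there, at -0.12, -0.05, -0.11 and -0.18. In the knockout library 1 gene, Tpi1, was higher in luminal cells and 3 were lower (Pfkp, Aldoa and Pkm), with a median of -0.10. On plain CPM those counts were again 1 and 3, with a median of -0.18. Background in that library was 25.5% higher and 30% lower of 12277 genes.

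Tpi1, the triose phosphate isomerase on chromosome 6, was higher in luminal than in basal cells in both libraries, at 127 against 63.5 in the knockout and 132 against 62.4 in the wild type. Pfkp was lower in luminal than in basal cells in both, at 14.6 against 51.6 in the knockout and 14.9 against 70.9 in the wild type. Ldha was at 283 in luminal and 257 in basal cells of the knockout library, and at 481 and 201 in the wild type library. Its luminal over basal ratio was 0.07 for the knockout against 1.47 for the wild type (0.58 on plain CPM). Hormone-sensing cells had 3 genes higher and 3 lower than basal cells in the knockout library (27.5% and 31.1% of 11556 genes), and 2 higher and 3 lower in the wild type library (27.8% and 31.5% of 10668). Pfkl, Pfkp and Eno1 were the lower ones in both libraries, with Eno1 at 154 against 343 in the knockout library and 187 against 338 in the wild type library.

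Isozyme shares do not depend on the scaling, since both genes are counted in the same cells. The liver-type enzyme Pfkl made up 66.1% of phosphofructokinase UMIs (Pfkl, Pfkp and Pfkm) in knockout luminal cells, with an exact interval of 62.6 to 69.6%, and 80.0% in wild type luminal cells (78.1 to 81.9%). In basal cells the knockout share was the higher one, with 45.0% (43.1 to 46.9%) for the knockout against 33.4% (31.2 to 35.6%) for the wild type. Aldoc, the brain-type aldolase, made up 35.1% of Aldoa and Aldoc UMIs in knockout luminal cells (33.5 to 36.7%) and 58.6% in wild type luminal cells (57.6 to 59.6%). In basal cells its share was 2.08% for the knockout against 4.68% for the wild type. Milk protein transcripts took 0.205% of knockout and 1.66% of wild type basal UMIs, and whether these were free RNA from luminal cells was not tested. Nor was any part of such RNA in the basal Aldoc shares. Ldhb, the heart-type lactate dehydrogenase, took 17.3% of Ldha and Ldhb UMIs in knockout luminal cells (16.2 to 18.5%) and 11.9% in wild type luminal cells (11.3 to 12.6%). In basal cells it took 27.2% for the knockout against 31.0% for the wild type. In luminal cells with 20% or more casein UMIs, knockout and wild type intervals overlapped for Pfkl (75.7 and 81.8%) and Ldhb (14.6 and 11.4%). Those of Aldoc did not (40.1 and 60.8%). Under 2% casein all intervals overlapped, and Pfkl (56.9 and 47.6%) and Ldhb (17.8 and 22.2%) went the other way, unlike Aldoc (34.4 and 40.3%). Counts of transcript ends are not divided by length, and the exact Clopper-Pearson intervals cover counting error only.

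**Figure D3:**
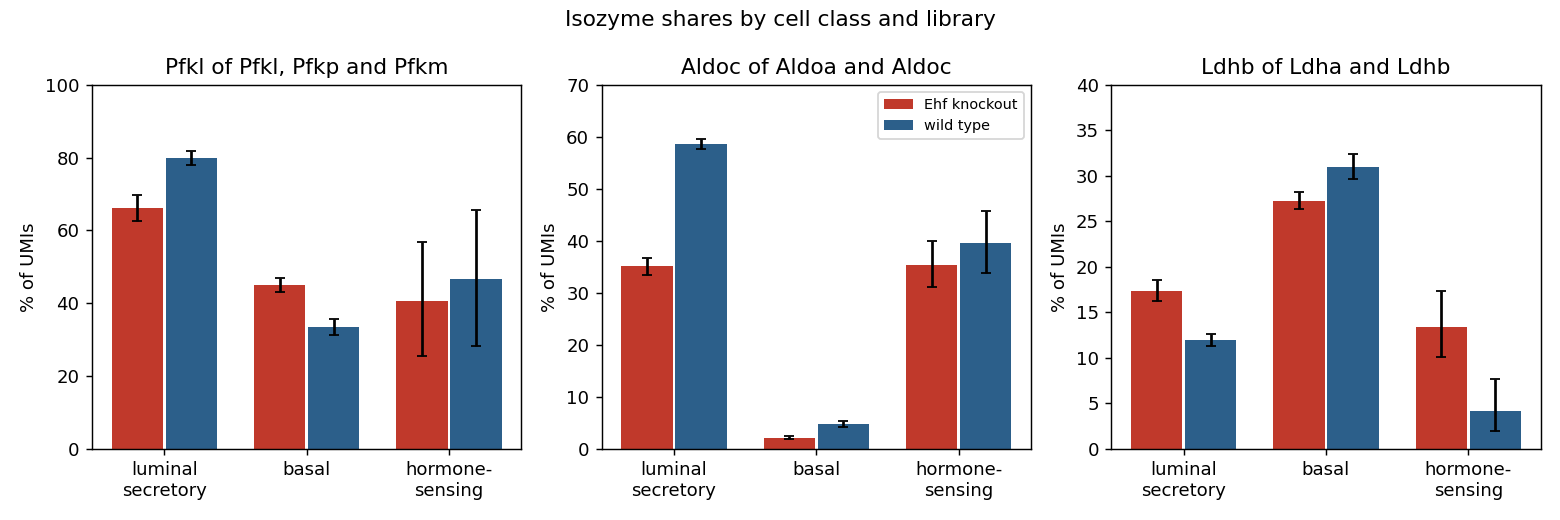
Share of UMIs (%) of Pfkl among phosphofructokinases, of Aldoc among Aldoa and Aldoc, and of Ldhb among Ldha and Ldhb, by cell class, with the Ehf knockout library in red left of the wild type library in blue and exact 95% intervals. Aldoc holds 35.1% in knockout and 58.6% in wild type luminal cells.

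Luminal cells were next binned by the share of their UMIs from the 5 casein genes, from under 2% to 20% or more. This share was taken as a measure of how far a cell has gone toward milk production. In the lowest wild type bin its median was 0.862%, close to the 0.794% of wild type basal cells. For the knockout these medians were 0.341% and 0.0878%. Casein in the lowest wild type bin thus cannot be told apart from free RNA of other cells. The knockout library had 314, 148, 162, 141 and 59 cells in the 5 bins from low to high, and the wild type library 68, 48, 85, 368 and 1990. The summed level of the 10 genes was 1270, 1520, 1590, 1730 and 1800 outside-milk CPM in the knockout bins and 1300, 1440, 1790, 2170 and 2120 in the wild type bins. On this scale both libraries had their lowest sum in the bin of least casein. On plain CPM the sums were 1240, 1440, 1440, 1450 and 1200 in the knockout bins and 1260, 1360, 1620, 1710 and 1230 in the wild type bins. There the lowest sum was in the bin of most casein in both, but close to that of the bin of least casein. The wild type bin of least casein held only 405 UMIs of the 10 genes, and no interval was computed for the sums.

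Ldha was at 209, 269, 289, 350 and 414 from the lowest to the highest bin of knockout cells, and at 202, 234, 283, 460 and 500 in wild type cells. Pfkl was at 30.1, 41.7, 34.5, 48.1 and 73.6 in knockout bins and at 32.1, 31.2, 55.4, 76.5 and 80.4 in wild type bins. Pkm was at 103, 109, 103, 145 and 154 in knockout bins and at 173, 177, 175, 193 and 226 in wild type bins. On this scale Ldha increased at every step in both libraries. On plain CPM it was lower in the highest bin than in the one before it, at 277 and 292 in knockout and 290 and 362 in wild type cells. Pkm of the knockout stayed below the wild type in every bin on both scales. On the outside-milk scale Gpi1 was lower in the highest than in the lowest bin in both libraries, with no steady course between them. It was at 122, 102, 108, 119 and 104 in knockout and at 106, 135, 115, 119 and 88.7 in wild type bins. The counting intervals of its highest and lowest bin overlapped in both libraries. Relative to the median gene, all 10 members including Gpi1 were above 0 in the highest over the lowest knockout bin. Eno1 was at 320, 396, 413, 398 and 388 in knockout and at 276, 333, 544, 552 and 503 in wild type bins.

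Between the highest and lowest casein bin, 5 of 10 genes were at least 1.5-fold higher in knockout cells and none lower, namely Pfkl (1.57), Ldha (1.27), Pgam1 (1.06), Aldoa (1.00) and Pkm (0.86) on the log2 scale. The median was 0.71, with 21.8% of 6941 genes higher and 21.2% lower. In wild type cells 5 were higher, Pgam1 (2.08), Pfkl (1.5), Ldha (1.48), Eno1 (1.04) and Aldoa (0.80), and Pfkp was lower (-1.07, interval -1.98 to 0.01). The median was 0.69, with 30.6% of 9459 genes higher and 28.4% lower. The call for the wild type Pfkp rests on 10 UMIs in the lowest bin.

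On plain CPM, where caseins take up the counts of the highest bin, the split became 1 higher and 2 lower in the knockout and 1 higher and 3 lower in the wild type library, and Aldoa of the wild type turned to -0.11. Pfkl, Ldha and Pgam1 stayed above 0 on every scale in both libraries. The lowest wild type bin was shallow, with a median of 2868.5 UMIs per cell against 6973.5 in the lowest knockout bin. Summed basal markers there were at 1240 for the knockout against 1790 for the wild type bin, and summed endothelial markers at 5.06 and 103. In the bin of 2 to 5% basal markers were at 1110 for the knockout against 3100 for the wild type, and endothelial markers at 3.27 and 250. Among cells with at least 2000 UMIs, cycling cells made up 19.9% of the lowest and 8.47% of the highest knockout bin. In those wild type bins they made up 6% and 5.02%. Without cells under 2000 UMIs, 5 knockout and 6 wild type genes were called, and without cells over 0.2% basal and endothelial marker UMIs 6 and 6 were. Without cycling cells, which also left out cells under 2000 UMIs, 5 knockout and 6 wild type genes were called.

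**Figure D4:**
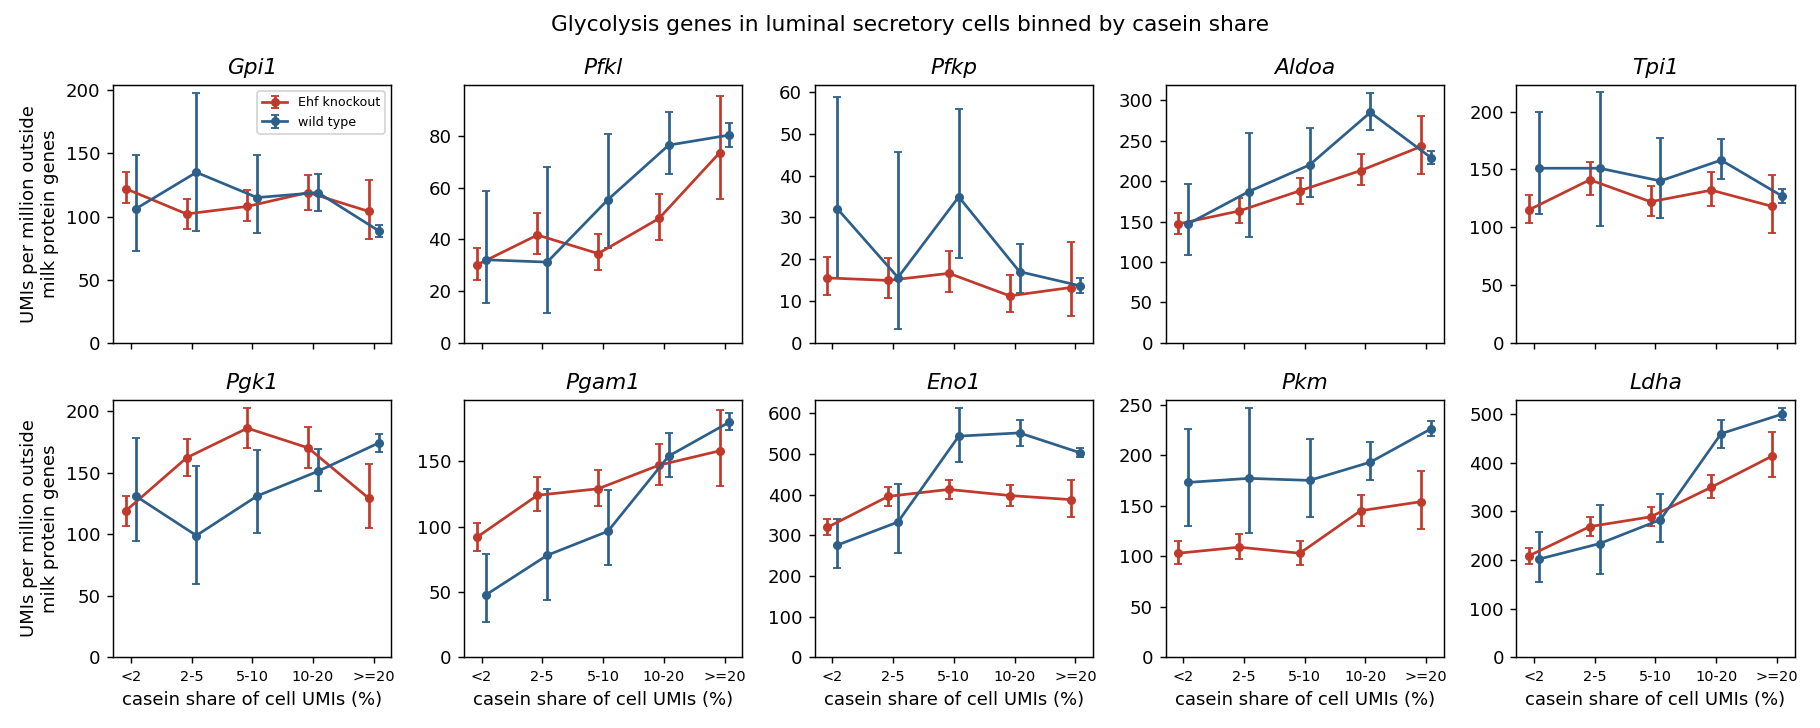
Level of each glycolysis gene (outside-milk CPM, linear axis from 0) in luminal secretory cells binned by casein share of cell UMIs, from low to high, with the Ehf knockout library in red left of the wild type library in blue and 95% counting intervals. On this scale Ldha increases along the bins in both libraries, to 414 in knockout and 500 in wild type cells, and Pkm is lower in the knockout in all 5 bins.

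The knockout and wild type libraries were then compared within each casein bin. The cells of a bin did not have equal shares, with a median casein share of 0.341% in knockout and 0.862% in wild type cells of the lowest bin, and 24.6% and 28.0% in the highest. Of 49 measured gene and bin pairs, 9 were at least 1.5-fold lower in the knockout and 1 was higher, with medians of -0.18, 0.04, -0.27, -0.45 and -0.21 from the lowest to the highest bin, where the whole class had -0.70. Background shares lower were 17.5%, 19.4%, 13.2%, 11.1% and 16.4% of the genes in these bins, and 18.7%, 21.4%, 14%, 9.76% and 13.8% were higher. The share of pairs counted as lower thus lay within the range of these background shares. Pkm accounted for 4 of the 9, at -0.88, -0.85, -0.82 and -0.61, and was at -0.46 in the bin of 10 to 20%. Pfkl was lower in the bins of 5 to 10% (-0.74) and 10 to 20% (-0.71), and at -0.18 (-0.59 to 0.21) in the highest bin. Ldha stayed within 1.5-fold in every bin, from -0.44 in the bin of 10 to 20% to 0.04 in that of 2 to 5%. Pgam1 was the gene that was higher, in the lowest bin (0.80, interval 0.06 to 1.66), where the wild type had 15 UMIs. Pfkp was lower in the bins of under 2% (-1.18), 5 to 10% (-1.13) and 10 to 20% (-0.65), against -0.34 over the whole class, and these values rest on 10, 17 and 36 wild type UMIs. The basal and endothelial marker levels given above for the bins under 5% apply to these ratios as well, and their part in them was not tested.

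Cycling cells were defined by at least 3 UMIs of 8 cell-cycle genes after thinning to 2000 UMIs. They were compared with the other thinned cells of their class. Cells too shallow for thinning entered neither side. In the basal class that left out 2945 of 6224 cells for the wild type, but only 196 of 5524 for the knockout. In the luminal class it left out 105 of 2559 and 27 of 824, in the same order. Aldoa was lower in cycling basal cells, at 141 against 344 in other basal cells of the knockout library and 139 against 326 in the wild type library, with log2 ratios of -1.34 and -1.27. Tpi1 was higher, at 126 against 60.5 in the knockout and 137 against 58.9 in the wild type library, with log2 ratios of 1.00 and 1.17. Pfkl was also lower in cycling basal cells of the knockout (-0.74) and at -0.50 in the wild type. In the knockout library 16.3% of 11299 genes were higher and 16.5% lower, and in the wild type 16.5% and 16.2% of 9599. In luminal cells none of the 10 reached 1.5-fold with cycling in either library, where 5.16% and 4.12% of genes were higher and lower in the knockout and 13.8% and 11.9% in the wild type, though Aldoa was at -0.50 and -0.52. Cycling cells were 22.1% of thinned luminal cells for the knockout against 5.91% for the wild type.

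Of 19 other glycolysis enzymes and sugar or lactate carriers, 8 were measured in luminal cells and 4 were at least 1.5-fold lower in the knockout, with a median of -0.83 and none higher. Of all genes 18.1% were lower and 15.3% higher. On plain CPM, with the median gene at 0.86, 1 was lower and 3 higher. Hk2, the hexokinase that traps glucose, was at 234 in knockout and 441 in wild type luminal cells (-1.22, and -0.36 on plain CPM). Slc2a1, the glucose transporter GLUT1, was at 44.8 and 97.7 (-1.43, plain -0.57). Slc16a1, a lactate carrier, was at 18.7 and 40.6 (-1.43, plain -0.56), and Aldoc at 97.2 and 330 (-2.07, plain -1.21). Gapdh, which makes NADH in the middle of the pathway, was at 597 and 547 (-0.18).

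Pathways that share substrates with glycolysis were described in the same way in luminal cells, where 18.1% of all genes were lower and 15.3% higher. In the hexose branch to lactose 5 of 8 genes were lower and none higher (median -0.91), led by Lalba, the milk protein that directs lactose synthesis (-4.97), and B4galt1, its catalytic partner (-2.73). In the pyruvate dehydrogenase and citrate cycle list 8 of 12 were lower and none higher (median -0.72), with the pyruvate dehydrogenase subunits Pdhb at -2.06 and Dlat at -2.03. In the pentose phosphate pathway 5 of 7 were lower and none higher (median -0.64), among them G6pdx, which makes NADPH for fat synthesis, at -1.51. On plain CPM the median gene was at 0.86. The splits there were 3 lower and 2 higher, 2 lower and 1 higher, and 1 lower and 2 higher for these lists in the same order. Lalba, B4galt1, Pdhb, Dlat and G6pdx stayed below 0 there.

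Among glycolysis regulators 3 of 8 measured were lower and 2 higher (median -0.26), where 18.1% of all genes were lower and 15.3% higher. On plain CPM, where the median gene was at 0.86, 1 was lower and 4 were higher, with a median of 0.60. Pfkfb3, which makes the activator of phosphofructokinase, was at 39.3 in knockout and 94.9 in wild type luminal cells (-1.58, plain -0.72), and Pdk3, a kinase that inactivates pyruvate dehydrogenase, was at 16.9 and 4.88 (1.48). Hif1a was at 53.8 and 95 (-1.13, plain -0.27). Of 10 measured hypoxia response genes 4 were lower and 1 higher (median -0.44), with Ndrg1 at -1.92, Bnip3 at -1.35, Vegfa at -0.93 (plain -0.06) and Mif at 1.04. On plain CPM 1 of these was lower and 3 were higher, with a median of 0.42. Of gluconeogenesis genes 2 of 6 were measured, Pcx, the pyruvate carboxylase, at -2.24 and Pck2 at 0.80. In basal cells these lists had medians between -0.59 for gluconeogenesis and 0.18 for hypoxia response genes.

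The genes whose pattern was most like the mean of the 10 over 14 units (class and casein bin in each library), among 2455 genes compared, were Lpin1 (Pearson r 0.863), Hk2 (0.861), Nrip1 (0.847), Abhd5 (0.824) and Pdha1 (0.823). The units share libraries and depth, and no p-value is given. Among the 10 themselves, Ldha followed the mean of the other 9 most closely (0.835), ahead of Pfkl (0.531), Pgam1 (0.425) and Eno1 (0.387). Aldoa (0.224), Pgk1 (0.158) and Pkm (0.088) followed it weakly, and Tpi1 (-0.017), Gpi1 (-0.218) and Pfkp (-0.438) were below 0, so the mean does not stand for every member. Lpin1, a phosphatidate phosphatase of fat synthesis, was at 20.3, 36.3, 49.7, 73.9 and 150 in knockout casein bins from low to high and at 16, 57.3, 76.0, 183 and 269 in wild type bins.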

How the data were processed

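Sorted single cells were captured with the 10x Chromium 3′ V3 kit, per the labels' protocols. The deposited files are whole-number UMI counts, not normalized. GRCm38 (mm10) and Seurat 4.0.4 are named in the submitters' processing notes, while aligner and counting tool are not given in the sources used.

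Cells with at least 500 genes, 1000 UMIs and at most 20% mitochondrial UMIs were kept. Scrublet (expected rate 6%) called 125 wild type and 0 knockout doublets, so it did not work in the knockout library, and 38 knockout cells exceeded the wild type threshold. Clustering used scanpy 1.11.5 with 2000 variable genes, 30 principal components, 20 neighbours and Leiden resolution 1, leaving out milk, mitochondrial and ribosomal protein genes. Clusters were named from marker lists, some of which hold milk genes.

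UMIs were summed per library and class. Intervals are exact conditional Poisson for ratios, exact Poisson for levels and exact Clopper-Pearson for shares. The level step was tested on simulated data. Milk protein transcripts took 0.205% of knockout against 1.66% of wild type basal UMIs, and whether these came from free RNA was not tested.

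The members, lists and tests were chosen with earlier results of these data known. Named were all 10 members, up to 4 genes of each list by size of luminal ratio, Gapdh and isozymes of that list, added after their values were seen, and the 5 most alike genes. Alternatives covered scaling, gene and cell filters, cell weight, thinning, cycling cells, bins, clustering and doublets.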

Additional observations from a re-analysis of the deposited data

Results flagged for a closer look

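The luminal secretory and basal ratios of 8 genes, Ehf knockout over wild type, lay on opposite sides of the median gene, and for 5 of them both counting intervals were clear of 0. The luminal minus basal difference of log2 ratios was -1.58 for Pfkl (-1.26 in luminal and 0.32 in basal cells), -1.47 for Pkm (-1.23 and 0.24), -1.45 for Ldha (-1.07 and 0.38), -1.16 for Pgam1 (-0.78 and 0.38) and -0.79 for Aldoa (-0.68 and 0.11). The other 3 were Eno1 (-0.72 and 0.05), Tpi1 (-0.36 and 0.05) and Gpi1 (-0.05 and 0.20), each with 1 interval reaching 0. These differences were not tested, because there was 1 library per genotype. On plain CPM the luminal ratios of Pgam1 and Aldoa were 0.08 and 0.18 and those of Eno1, Tpi1 and Gpi1 were 0.14, 0.50 and 0.81, on the same side of 0 as in basal cells.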

How the results depend on the processing

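Scaling changed the luminal result most. The 6 genes lower in knockout luminal cells became 1 called gene (Gpi1, higher) on plain CPM and 3 on the outside-milk scale, and Aldoa (0.18), Pgam1 (0.08) and Eno1 (0.14) reversed on plain CPM. The 5 knockout genes called along casein bins became 3 on plain CPM, and wild type Aldoa reversed to -0.11. These moves follow from the construction of the scales. Milk transcripts take a different share of UMIs on each side, which sets plain CPM apart from the outside-milk scale. The move from 6 to 3 genes is the centring alone, since the outside-milk scale already leaves out milk protein genes. For knockout over wild type luminal cells the centring removed a shift of 0.31 on that scale and 0.86 on plain CPM. The source of the shift of 0.31 was not tested. In hormone-sensing cells, where none was called, 1 was with a minimum of 20 UMIs, 1 with no gene filter and 2 after thinning to 2000 UMIs. In basal cells 1 was after thinning. Within casein bins the 10 called pairs became 5 after thinning, with fewer pairs measured, and 6 with bins at 3 and 15%. For single genes in the comparisons of genotypes by class and of casein bins within a library, 446 values stayed within their counting interval, 60 moved further and 4 reversed, those named above. Comparisons between classes were recomputed on the scales only, and there 4 wild type genes called in luminal over basal cells (Pgk1, Pgam1, Eno1 and Pkm) turned below 0 on plain CPM. Leaving out cycling cells, and with them all cells under 2000 UMIs, kept 5 luminal genes called. Leaving out cells under 2000 UMIs, or cells over 0.2% basal and endothelial marker UMIs, was chosen after seeing the data and kept every count within 1.5-fold of the main one. No paired analysis was possible because each genotype had 1 library, and for the same reason no replicate could be left out. Depth limits the lowest wild type casein bins and hormone-sensing cells.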
